A study of Mus musculus with 24 samples.

Results

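The dorsal hippocampus of daughters of nicotine-treated sires was compared with that of daughters of saline-treated sires, gene by gene, in 3 libraries against 3. These 6 libraries were taken from the 24 of the series by the sire treatment, sex and region in their labels, and every gene that passed a filter on low counts was tested, 19130 of the 51912 in the table. All mice were of the C57BL/6J strain, and the nicotine or saline was given to the father, so the daughters themselves are labelled only by their father's treatment. The labels give no dose and no age. The remaining 18 libraries came from sons and from the ventral hippocampus and were used to show where the dorsal female difference stands. The 6 dorsal libraries of sons were also in the same fit, where they add to the estimate of spread behind the female p-values. The number that opens each library title is another one in each of the 4 groups formed by treatment of the sire and sex. If it marks a sire, litter or cage, that cannot be told apart from the sire treatment. The p-values below measure only the spread between libraries within the groups fitted, which may come from related animals. Values are log2 fold changes (log2FC), nicotine-sired over saline-sired, with standard errors (SE), or levels in CPM, the count of a gene scaled to the size of its library. A gene is said to have risen or fallen where its adjusted p from edgeR's quasi-likelihood test was under 0.05.

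The dorsal hippocampus serves spatial and contextual memory and is made up of dentate granule cells, CA pyramidal cells, interneurons, glia and vessels, with choroid plexus lying against it in the ventricle. Several of the genes described below belong to families that follow the state of the cell. Rbm3 and Cirbp encode RNA-binding proteins that accumulate when body or culture temperature drops slightly. Chaperones of the cytosol and of the endoplasmic reticulum fold proteins and rise under heat or unfolded protein load, and Dbp is a transcription factor gene driven directly by the circadian clock. In whole tissue, fewer cells of a type and less RNA per cell cannot be told apart.

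The 6 libraries held 35955252 to 46012974 counts each and 24071 to 25151 genes with a count. Xist, the transcript of the inactive X chromosome, was at 103 to 173 CPM and the Y-linked gene Ddx3y at no more than 0.0555 CPM in all 6, as their female labels require. Hippocampal markers were present in every library, with Prox1 of granule cells at 44.4, 101 and 97.0 CPM in nicotine-sired daughters and 93.2, 70.1 and 58.2 CPM in saline-sired daughters. Library A of the nicotine-sired daughters stood apart. Its 15 markers of thalamus, striatum and cortex summed to 702 CPM, against 350 and 332 CPM in nicotine-sired B and C and 271, 266 and 327 CPM in the saline-sired libraries. Of the 15, 7 were highest in nicotine-sired A, 4 in nicotine-sired B, 3 in saline-sired C and 1 in saline-sired A. Lamp5, a cortical marker, was at 250 CPM in nicotine-sired A and at 36.1 to 46.1 CPM in the other 5. Choroid plexus varied in another way. Its 22 markers summed to 387, 7662 and 2833 CPM in nicotine-sired A, B and C and to 280, 230 and 1588 CPM in saline-sired A, B and C. Ttr, the transthyretin gene that choroid plexus transcribes heavily, was at 89.6, 5201 and 1641 CPM in the nicotine-sired and 45.5, 34.1 and 1025 CPM in the saline-sired libraries. All 22 plexus markers were highest in nicotine-sired B, all 22 had a positive log2FC (median 2.52), and none passed at an adjusted or an unadjusted p under 0.05. Values without these libraries, or with a plexus score in the model, stand below beside the calls and beside the results they move most, and the part of either tissue in the other results was not tested.

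**Figure D1:**
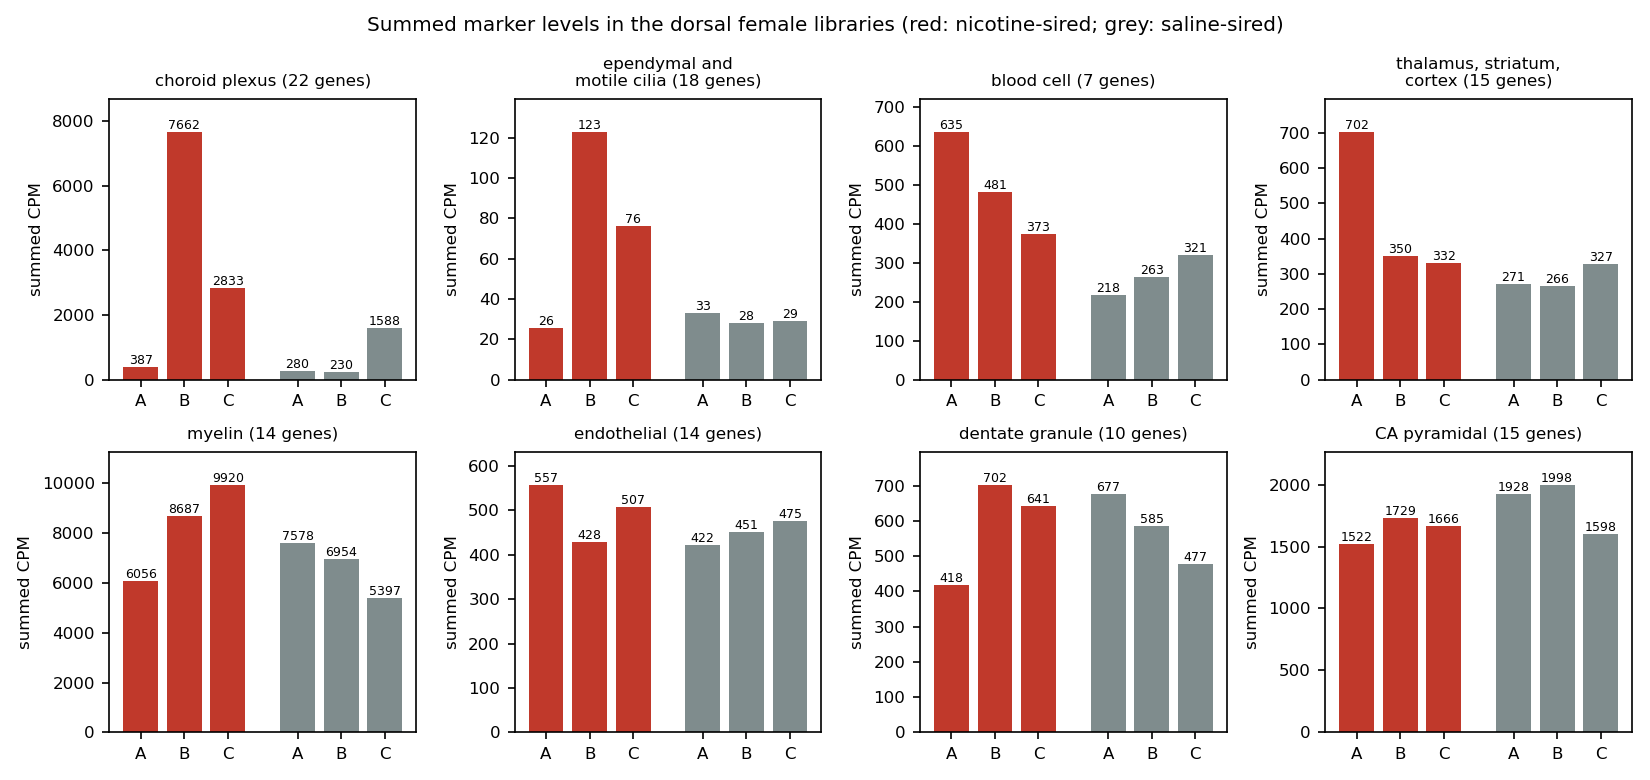
Summed levels (CPM, axes from 0) of marker genes for 8 cell types or tissues in the 3 nicotine-sired (red, left) and 3 saline-sired (grey, right) dorsal female libraries; each bar is 1 library. Plexus markers peak in nicotine-sired B at 7662 CPM, cortical and striatal markers in nicotine-sired A at 702 CPM, and blood cell markers are at 373 to 635 CPM in nicotine-sired against 218 to 321 CPM in saline-sired libraries.

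Of the 19130 genes tested, 6 passed (0.0314%), 2 higher (0.0105%) and 4 lower (0.0209%) in nicotine-sired daughters. The cold-inducible Rbm3, the microtubule-associated Eml2 and the noncoding G530011O06Rik and Gm15726 fell, and the Cdc42 effector gene Cdc42ep1 and the noncoding Gm42756 rose. The edgeR test gave 2547 genes an unadjusted p under 0.05, 1377 higher (7.2%) and 1170 lower (6.12%). The 6 calls depended on the fit. None was made when the 6 female libraries were fitted alone (2068 genes at an unadjusted p under 0.05), and DESeq2 called 284 genes, 5 of the 6 among them, with no adjusted p for Gm15726. Leaving out nicotine-sired female C, saline-sired female B or saline-sired female C ended all 6 calls, and leaving out nicotine-sired female B left 1. The refit without saline-sired female A gave 3 calls, 2 of the 6 among them, and that without saline-sired male B kept 3 of the 6. Without nicotine-sired female A, the library with the highest sum of thalamus, striatum and cortex markers, 8 genes were called, 5 of the 6 among them. With a plexus score in the model, Rbm3 and G530011O06Rik were the only calls left.

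Rbm3 (ENSMUSG00000031167, chromosome X, 8138975 to 8145880, minus strand, GRCm38 here and below) was at 36.8, 42.1 and 37.1 CPM in nicotine-sired daughters A, B and C, against 59.6, 74.6 and 63.4 CPM in saline-sired daughters. All 3 nicotine-sired libraries lay below all 3 saline-sired ones. The log2FC was -0.77 ± 0.09 (SE, n = 3 each; edgeR adjusted p = 0.0164). It was -0.74 ± 0.10 without nicotine-sired A (edgeR adjusted p = 0.0117) and -0.78 ± 0.10 when a plexus score entered the model (edgeR adjusted p = 0.0444). Its partner gene in the cold response, Cirbp (ENSMUSG00000045193, chromosome 10, 80165985 to 80172786), was at 26.9, 24.6 and 25.9 CPM in nicotine-sired and 32.2, 42.6 and 39.2 CPM in saline-sired daughters. These groups did not overlap either, but the log2FC of -0.56 ± 0.09 did not pass (edgeR adjusted p = 0.105). Cirbp did not pass in 11 of 12 refits without 1 library. The exception was the refit without saline-sired A, the lowest of the saline-sired libraries, at -0.67 ± 0.08 (edgeR adjusted p = 0.0303). Without saline-sired B, the highest, it was -0.48 ± 0.09 (edgeR adjusted p = 0.477).

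The list of 16 cold-responsive and cold-linked RNA-binding genes followed these 2 genes only in part. Rbm3 was its only call. Of the 16, 4 were lower at an unadjusted p under 0.05, against 6.12% of all genes, 6 had all nicotine-sired libraries below all saline-sired ones, against 9.17% of all genes, and 14 had a negative log2FC. The median was -0.08, against 0.00855 over all genes tested, and -0.14 without the 3 daughters' libraries with Ttr over 1000 CPM (nicotine-sired B and C and saline-sired C), a fit chosen after seeing the data. The splicing factor gene Srsf3 had a log2FC of -0.15 ± 0.06 (edgeR adjusted p = 0.342) and the ribonucleoprotein gene Hnrnpdl one of -0.15 ± 0.08 (edgeR adjusted p = 0.415). Clk1 and Clk4, splicing kinase genes, had -0.10 ± 0.13 and -0.05 ± 0.09, with overlapping groups.

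A promoter of Cirbp is shown because it holds the letters TCCCCGCC, which have been described as a mild-cold response element of this gene. The window runs from 250 bases before to 50 bases after an annotated start, from RefSeq on GRCm38.p6 (chr10:80167589-80167888, plus strand). Capitals mark TCCCCGCC, GGGCGG and CCAAT, searched on both strands.
Cirbp: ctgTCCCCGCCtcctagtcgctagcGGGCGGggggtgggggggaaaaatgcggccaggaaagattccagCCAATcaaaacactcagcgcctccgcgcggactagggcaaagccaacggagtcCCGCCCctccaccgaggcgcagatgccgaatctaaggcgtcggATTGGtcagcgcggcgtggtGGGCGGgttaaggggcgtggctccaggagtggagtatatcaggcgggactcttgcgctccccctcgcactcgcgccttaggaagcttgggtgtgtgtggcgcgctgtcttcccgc
TCCCCGCC stands at bases 4 to 11 of the window, beginning 247 bases before the start, and occurs in 5.38% of the 32851 promoter windows. GGGCGG occurs 3 times here and in 35.7% of windows, and CCAAT, on either strand, 2 times here and in 37.4% of windows. The other annotated Cirbp start window (chr10:80167921-80168220, plus strand) holds GGGCGG but not TCCCCGCC. No promoter of Rbm3 is printed.

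**Figure D2:**
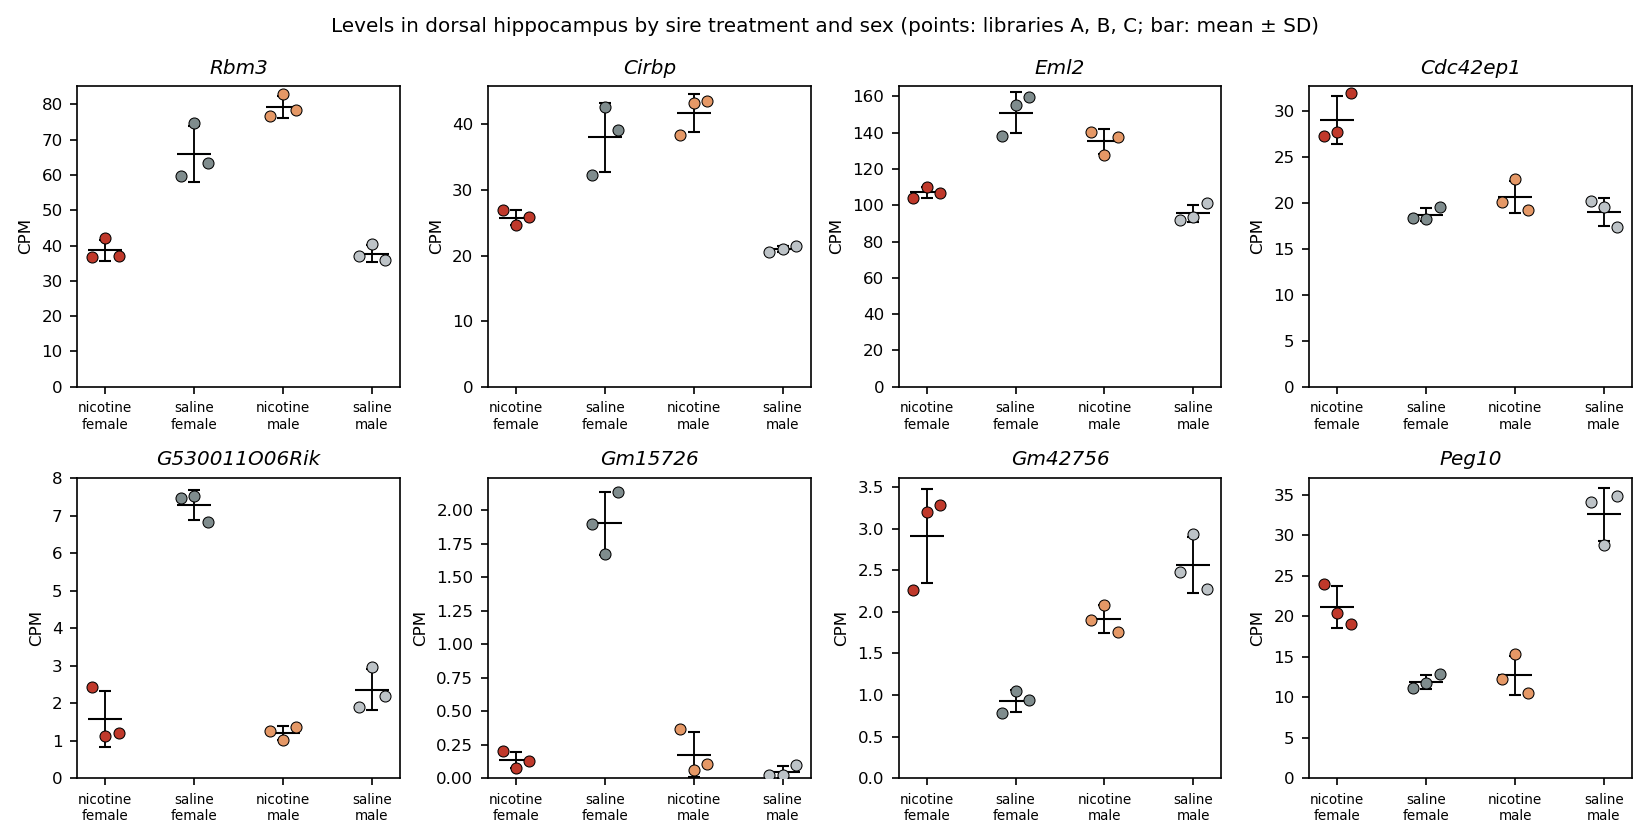
Levels (CPM, axes from 0) of 8 genes in the 12 dorsal libraries, by sire treatment and sex of the offspring; points are libraries A, B and C, and bars the mean ± SD of 3. Rbm3, Cirbp and Eml2 are lower in nicotine-sired than in saline-sired daughters and higher in nicotine-sired than in saline-sired sons, whereas G530011O06Rik and Gm15726 stand out in saline-sired daughters, where G530011O06Rik is at 6.83 to 7.54 CPM.

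Eml2 (ENSMUSG00000040811, chromosome 7, 19176421 to 19206482, plus strand), which encodes a protein of the echinoderm microtubule-associated family, was at 104, 110 and 107 CPM in nicotine-sired daughters, against 138, 155 and 159 CPM in saline-sired daughters. The groups were far apart relative to their spread, and the log2FC was -0.50 ± 0.07 (edgeR adjusted p = 0.0400). The size held in the refits, between -0.56 and -0.46 with 1 library left out, but the call ended in 7 of 12 refits. Without nicotine-sired A it was -0.49 ± 0.08 (edgeR adjusted p = 0.0635), and with the plexus score -0.50 ± 0.08 (edgeR adjusted p = 0.127). Eml2 was the only call among 26 microtubule-associated protein genes, of which 10 had a positive and 16 a negative log2FC (median -0.02, and 0.07 without the 3 libraries with high Ttr). Eml4, another member of the family, had all nicotine-sired libraries below all saline-sired ones (-0.14 ± 0.08, edgeR adjusted p = 0.427), and Eml1 had 0.16 ± 0.10 with overlapping groups.

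Cdc42ep1 (ENSMUSG00000049521, chromosome 15, 78842624 to 78850897, plus strand) encodes an effector that binds the small GTPase Cdc42 and shapes actin and septins. It was at 27.3, 27.7 and 32.003 CPM in nicotine-sired daughters, against 18.3, 18.3 and 19.6 CPM in saline-sired daughters, with no overlap, and rose by 0.63 ± 0.09 (edgeR adjusted p = 0.0400). The call ended in 7 of 12 refits without 1 library but held without nicotine-sired A, at 0.66 ± 0.10 (edgeR adjusted p = 0.0288). With the plexus score the call ended, at 0.57 ± 0.09 (edgeR adjusted p = 0.127). Exon of a coding gene on the opposite strand covers 38 bases of it, and no source used here gives the strand setting of the counting. Myo1e, a class I myosin gene, was at 17.2, 17.4 and 17.5 CPM in nicotine-sired and 10.98, 9.18 and 11.5 CPM in saline-sired daughters (0.72 ± 0.11, edgeR adjusted p = 0.0820). Cdc42ep2, a related effector gene, was at 9.31, 12.3 and 12.6 CPM in nicotine-sired and 8.19, 8.72 and 7.49 CPM in saline-sired daughters (0.49 ± 0.13, edgeR adjusted p = 0.202). Neither of these groups overlapped, and neither gene passed.

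The gene with the steepest fall, Gm15726 (ENSMUSG00000087263, an antisense transcript, chromosome X, 169979047 to 169985232, minus strand), was at 0.202, 0.0767 and 0.130 CPM in nicotine-sired and 1.90, 1.67 and 2.14 CPM in saline-sired daughters. Its log2FC was -3.75 ± 0.55 (edgeR adjusted p = 0.0428), a fitted value that depends on the prior count at such levels. Its neighbour G530011O06Rik (ENSMUSG00000072844, a processed transcript, chromosome X, 169975043 to 169978917, minus strand) was at 2.45, 1.12 and 1.20 CPM in nicotine-sired and 7.48, 7.54 and 6.83 CPM in saline-sired daughters. It fell with a log2FC of -2.19 ± 0.27 (edgeR adjusted p = 0.0164). The groups did not overlap for either transcript, and within the nicotine-sired daughters library A was the highest for each. Without that library the log2FC was -2.66 ± 0.22 for G530011O06Rik (edgeR adjusted p = 0.000321) and -4.17 ± 0.65 for Gm15726 (edgeR adjusted p = 0.0472). With the plexus score the log2FC was -1.94 ± 0.21 for G530011O06Rik (edgeR adjusted p = 0.0128) and -3.72 ± 0.60 for Gm15726, which no longer passed (edgeR adjusted p = 0.127). The 2 transcripts lie 129 bases apart. A further antisense transcript, Gm15247, begins 568 bases beyond Gm15726 and was at 0.0449, 0 and 0.0521 CPM in nicotine-sired and 0.263, 0.377 and 0.305 CPM in saline-sired daughters, without passing (edgeR adjusted p = 0.223).

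All 3 transcripts lie inside Mid1 (chromosome X, 169685199 to 170005736), on the strand opposite to it. Mid1 encodes a ubiquitin ligase of the midline and in this mouse strain crosses the edge of the pseudoautosomal region, the stretch that X and Y share. Mid1 itself was at 19.9, 16.1 and 16.7 CPM in nicotine-sired and 13.8, 12.8 and 14.96 CPM in saline-sired daughters (0.34 ± 0.13, edgeR adjusted p = 0.312), so the host gene was not lower there. The sons were low in both groups. G530011O06Rik was at 1.26, 1.01 and 1.37 CPM in nicotine-sired and 1.91, 2.98 and 2.21 CPM in saline-sired sons. The saline-sired daughters were therefore above all 9 other dorsal libraries. The groups of sons did not overlap either, with a log2FC of -0.96 ± 0.28 in the same direction as in daughters (edgeR adjusted p = 0.108). The sex difference of this transcript, -1.23 ± 0.39, did not pass (edgeR adjusted p = 0.106). The start of G530011O06Rik is shown for its copies on X and Y, from RefSeq on GRCm38.p6, since reads from such copies can be split or dropped in counting. The windows are chrX:169978868-169979167 and chrY:90755001-90755300, both on the minus strand, and capitals mark the bases that differ.
G530011O06Rik on X: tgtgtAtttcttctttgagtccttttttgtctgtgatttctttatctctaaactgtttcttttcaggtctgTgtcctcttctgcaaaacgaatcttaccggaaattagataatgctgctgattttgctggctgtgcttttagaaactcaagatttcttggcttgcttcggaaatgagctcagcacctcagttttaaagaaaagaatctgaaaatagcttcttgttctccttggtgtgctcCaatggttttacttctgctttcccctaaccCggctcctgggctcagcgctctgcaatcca
G530011O06Rik on Y: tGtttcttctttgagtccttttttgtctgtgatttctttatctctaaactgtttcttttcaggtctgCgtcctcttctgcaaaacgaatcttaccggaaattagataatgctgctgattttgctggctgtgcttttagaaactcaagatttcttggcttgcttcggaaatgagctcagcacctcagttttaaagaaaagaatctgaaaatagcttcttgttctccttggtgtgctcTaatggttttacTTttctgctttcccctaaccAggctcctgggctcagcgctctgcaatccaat
Over 296 aligned bases the copies differ at 4 positions, an identity of 98.6%, with 2 further bases in the Y copy alone. Daughters carry the X copy alone, whereas in sons the transcript could come from either. Reads that match both copies may have been dropped or given to the Y copy in any library, so the levels of G530011O06Rik are uncertain. Gm15726 and Gm15247 lie beside it, and whether their reads match a Y copy as well was not tested.

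The other noncoding call was Gm42756 (ENSMUSG00000104674, an antisense transcript, chromosome 9, 109537100 to 109552780, plus strand). It was at 2.27, 3.19 and 3.28 CPM in nicotine-sired and 0.790, 1.05 and 0.943 CPM in saline-sired daughters, without overlap. It rose by 1.65 ± 0.20 (edgeR adjusted p = 0.0164). The summed counts of a selected set of antisense genes, as a ratio to those of the coding genes opposite them, were higher in nicotine-sired daughters. The set took in 574 coding genes, with 50 CPM as their lower limit. It held 625 antisense genes, each limited to a share of 0.05 of its coding gene. The ratio was 0.259%, 0.282% and 0.242% in nicotine-sired A, B and C, against 0.216%, 0.209% and 0.201% in saline-sired A, B and C. The source of the antisense counts in this ratio was not tested. With that ratio as a covariate, Gm42756 had 1.59 ± 0.20 (edgeR adjusted p = 0.0432) and 3 of the 6 genes were still called. With the plexus score it had 1.55 ± 0.22 and did not pass (edgeR adjusted p = 0.0803), and its call ended in 5 of 12 refits without 1 library.

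Past the calls, the 15 highest-ranked genes with a name of their own in each direction were examined, of which 3 had passed. The others had edgeR adjusted p-values of 0.0820 to 0.175. Among those with higher levels, Peg10, an imprinted gene of retrotransposon origin, was at 23.98, 20.4 and 19.1 CPM in nicotine-sired and 11.1, 11.7 and 12.8 CPM in saline-sired daughters (0.83 ± 0.13, edgeR adjusted p = 0.0826). Kdr, which encodes the endothelial VEGF receptor, was at 18.4, 16.02 and 15.7 CPM in nicotine-sired and 10.3, 9.04 and 11.5 CPM in saline-sired daughters (0.70 ± 0.13, edgeR adjusted p = 0.149). Inhba, the activin beta-A subunit gene, was at 17.8, 12.9 and 15.5 CPM in nicotine-sired and 8.09, 8.86 and 7.49 CPM in saline-sired daughters (0.92 ± 0.19, edgeR adjusted p = 0.175). In each of these the groups did not overlap. Gjb1 (0.82 ± 0.16), the oligodendrocyte gap junction gene, Shroom3 (1.22 ± 0.25), an actin-binding gene, Eif4g3 (0.32 ± 0.06), a translation initiation factor gene, and Kcnk13 (0.67 ± 0.14), a potassium channel gene, belonged to the same rank. The largest log2FC of the 15, 2.12 ± 0.41, was that of the cilium gene Cfap57, whose levels of 1.12, 2.38 and 1.72 CPM in nicotine-sired and 0.500, 0.242 and 0.444 CPM in saline-sired daughters went with the ciliary markers given below. Cast, the gene of the calpain inhibitor calpastatin (0.91 ± 0.18), has 834 bases of exon opposite another coding gene, and Tmem254c (0.34 ± 0.07) has near-identical copies, so both are uncertain.

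Among the 15 lower genes, Dbp was at 52.3, 43.5 and 38.8 CPM in nicotine-sired and 66.3, 63.3 and 76.2 CPM in saline-sired daughters (-0.61 ± 0.11, edgeR adjusted p = 0.132), with 539 bases of its exons opposite another coding gene. Dbp did not pass in 11 of 12 refits without 1 library. The exception was the refit without nicotine-sired A, its highest nicotine-sired library, at -0.75 ± 0.10 (edgeR adjusted p = 0.0117). Without the 3 libraries with high Ttr, which leaves A as the only nicotine-sired library, the log2FC of Dbp was -0.31. Inhbb, the activin beta-B subunit gene, was at 5.32, 4.75 and 4.95 CPM in nicotine-sired and 7.85, 8.91 and 9.02 CPM in saline-sired daughters (-0.78 ± 0.16, edgeR adjusted p = 0.164). The activin subunit genes thus lay in opposite directions, Inhba higher and Inhbb lower. Cpe, the gene of carboxypeptidase E, which trims prohormones and neuropeptides, was at 1942, 2027 and 2168 CPM in nicotine-sired and 2599, 2727 and 2583 CPM in saline-sired daughters (-0.37 ± 0.08, edgeR adjusted p = 0.175). Ide, the insulin-degrading enzyme gene (-0.34 ± 0.06), Chst2, a sulfotransferase gene (-0.40 ± 0.08), Lhfpl4, whose product anchors GABA-A receptors (-0.36 ± 0.07), Frat2, a Wnt pathway gene (-0.70 ± 0.13), and Capn5, a calpain gene (-0.42 ± 0.09), were near it in rank. None of the 15 lower genes had a log2FC below -0.78.

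The same contrast in sons ran the other way for most of these genes. Nicotine-sired sons had Rbm3 at 76.6, 82.8 and 78.3 CPM, against 36.9, 40.3 and 35.8 CPM in saline-sired sons. The saline-sired sons therefore lay in or just below the range of the nicotine-sired daughters, and the nicotine-sired sons above the saline-sired daughters. The difference between the female and the male log2FC of Rbm3 was -1.84 ± 0.13 (edgeR adjusted p = 5.31e-05). For Eml2 it was -0.996 ± 0.10 (edgeR adjusted p = 0.000476), with 140, 128 and 138 CPM in nicotine-sired and 92.1, 93.7 and 101 CPM in saline-sired sons. Peg10 showed the reverse, at 12.2, 15.3 and 10.5 CPM in nicotine-sired and 34.1, 28.8 and 34.8 CPM in saline-sired sons, with a difference of 2.19 ± 0.19 (edgeR adjusted p = 0.000278). Cdc42ep1 had 0.12 ± 0.09 in sons, and its sex difference of 0.52 ± 0.13 did not pass (edgeR adjusted p = 0.0540).

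Of the 30 ranked genes, 23 had the opposite sign in sons (76.7%, against 58.0% of all genes tested), 14 of the 15 lower and 9 of the 15 higher ones. The sex difference was called for 22 of them, against 2.24% of all genes, 428 of 19130; since the ranking used the female libraries that also enter that difference, nothing is read from this count. In sons alone, 7 of the 30 passed in the opposite direction and 1, Tmem254c, in the same one. Of all 19130 genes tested, 265 passed in sons with the opposite sign and 76 with the same one. The opposite direction was thus the more frequent one among all calls in sons. For the sex difference, leaving out a library of the nicotine-sired daughters gave 837 calls without A, 282 without B and 92 without C. For the saline-sired daughters it gave 241 without A and 76 without B. Leaving out a library of the nicotine-sired sons gave 116 calls without A, 273 without B and 94 without C, and of the saline-sired sons 142 without A and 121 without B. DESeq2 gave 1289.

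**Figure D3:**
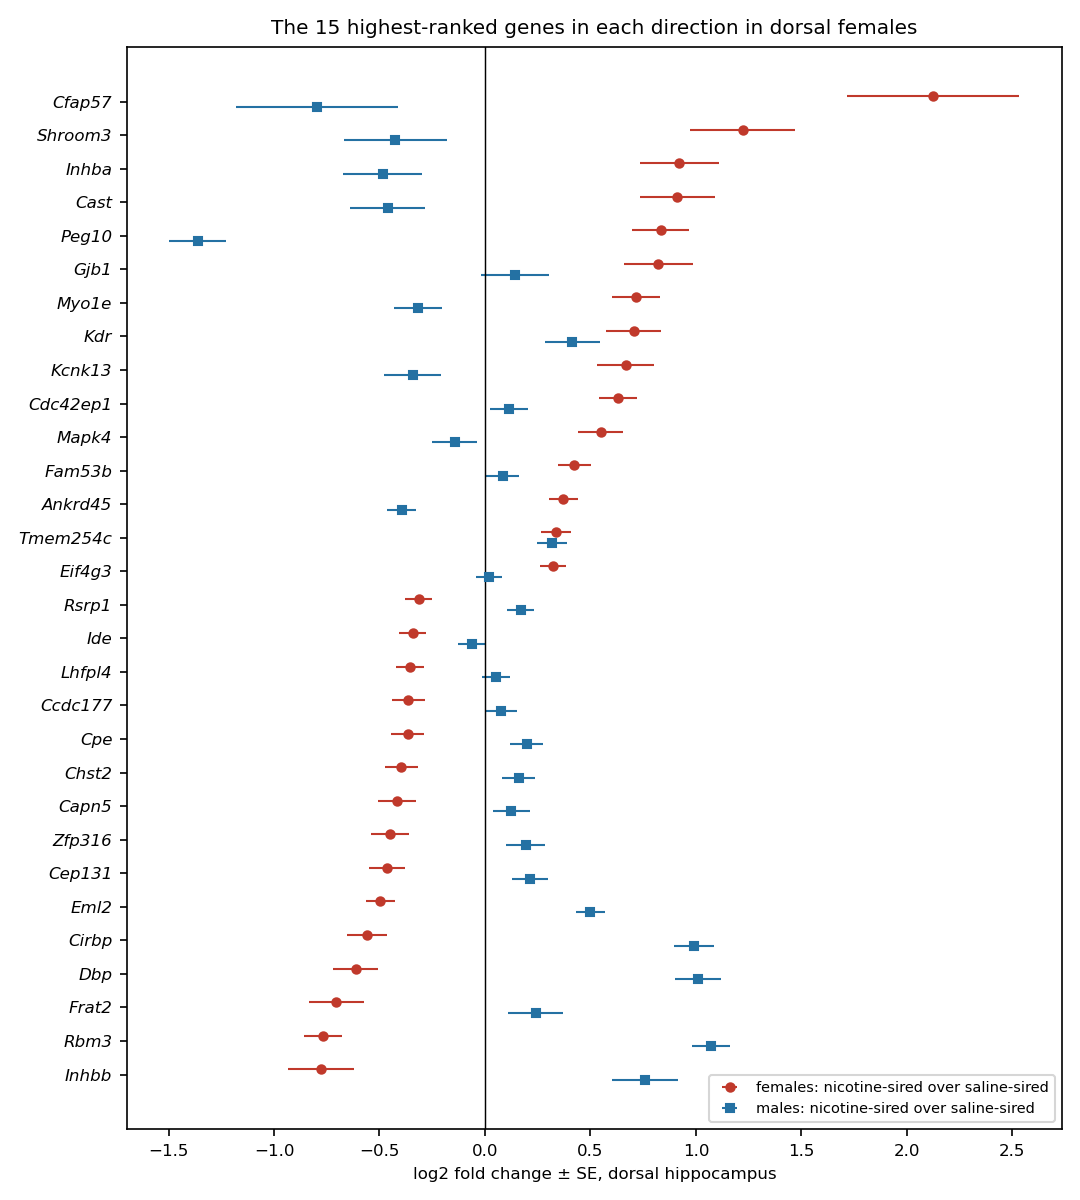
Log2 fold changes (nicotine-sired over saline-sired, ± SE) in the dorsal hippocampus of daughters (red circles) and sons (blue squares) for the 15 highest-ranked named genes in each direction in daughters. Of these 30 genes, 23 have opposite signs in the 2 sexes; Rbm3, Cirbp, Dbp, Eml2 and Inhbb are negative in daughters and positive in sons.

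Chaperone genes of the endoplasmic reticulum leaned upward in daughters without passing. All 20 genes of the endoplasmic reticulum list had a positive log2FC, with a median of 0.15. A higher level at an unadjusted p under 0.05 was found for 5, against 7.2% of all genes, and the groups did not overlap for 7, against 9.11%. Hsp90b1, the gene of the chaperone GRP94, was at 332, 397 and 354 CPM in nicotine-sired and 302, 306 and 301 CPM in saline-sired daughters (0.25 ± 0.08, edgeR adjusted p = 0.230). Hyou1, a nucleotide exchange chaperone gene, was at 114, 130 and 118 CPM in nicotine-sired and 103, 103 and 108 CPM in saline-sired daughters (0.20 ± 0.06, edgeR adjusted p = 0.233). The disulphide isomerase gene Pdia3 (0.25 ± 0.08), the calreticulin gene Calr (0.23 ± 0.09) and Sdf2l1 (0.32 ± 0.11) were also without overlap. In sons the median of the list was -0.60. The sex difference passed for 15 of 20, against 2.24% of all genes, each with the log2FC, not the level, higher in daughters than in sons. Nicotine-sired B was the highest library of the daughters for all 5 genes named here, and it is also the library with the most choroid plexus transcript.

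Of 22 cytosolic heat shock proteins and co-chaperones, none passed, 5 were higher at an unadjusted p under 0.05, against 7.2% of all genes, and 14 had a positive log2FC (median 0.11). Stip1, which links HSP70 and HSP90, was at 182, 190 and 178 CPM in nicotine-sired and 143, 151 and 158 CPM in saline-sired daughters (0.28 ± 0.06, edgeR adjusted p = 0.175). Cryab, the small heat shock protein gene of oligodendrocytes and astrocytes, was at 116, 174 and 152 CPM in nicotine-sired and 98.0, 111 and 100.2 CPM in saline-sired daughters (0.51 ± 0.14, edgeR adjusted p = 0.210). Fkbp4, a co-chaperone gene of steroid receptors, had 0.20 ± 0.07 (edgeR adjusted p = 0.252). In sons the median was -0.51, and the sex difference passed for 12 of 22, against 2.24% of all genes. The list was mixed in daughters, with 8 of the 22 negative. Its sums overlapped, at 6463, 6928 and 6768 CPM in nicotine-sired and 6501, 6851 and 6237 CPM in saline-sired daughters. The median of the list was positive and Rbm3 and Cirbp were negative in daughters, and each had the other sign in sons.

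Glucocorticoid-induced genes did not share a direction in daughters. Of 24, 3 were higher and 5 lower at an unadjusted p under 0.05, against 7.2% and 6.12% of all genes, none passed, and the median was -0.02, against -0.61 in sons. Ddit4, a stress-induced inhibitor of mTOR signalling, was at 26.9, 39.2 and 34.6 CPM in nicotine-sired and 49.4, 49.4 and 44.2 CPM in saline-sired daughters (-0.51 ± 0.12, edgeR adjusted p = 0.181). Hif3a was at 1.615, 1.303 and 2.632 CPM in nicotine-sired and 2.63, 3.26 and 4.16 CPM in saline-sired daughters (-0.86 ± 0.23, edgeR adjusted p = 0.202). Tsc22d3, the GILZ gene, had -0.34 ± 0.12 (edgeR adjusted p = 0.253) with overlapping groups, library A of the nicotine-sired daughters at 65.0 CPM lying beside the lowest saline-sired library at 64.6 CPM. Among 20 circadian clock genes, Dbp and the related Tef (-0.30 ± 0.10) lay lower and the clock activator gene Arntl (0.26 ± 0.08) higher, each without overlap and none passing. The median of that list was 0.03, and 0.16 without the 3 libraries with high Ttr.

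**Figure D4:**
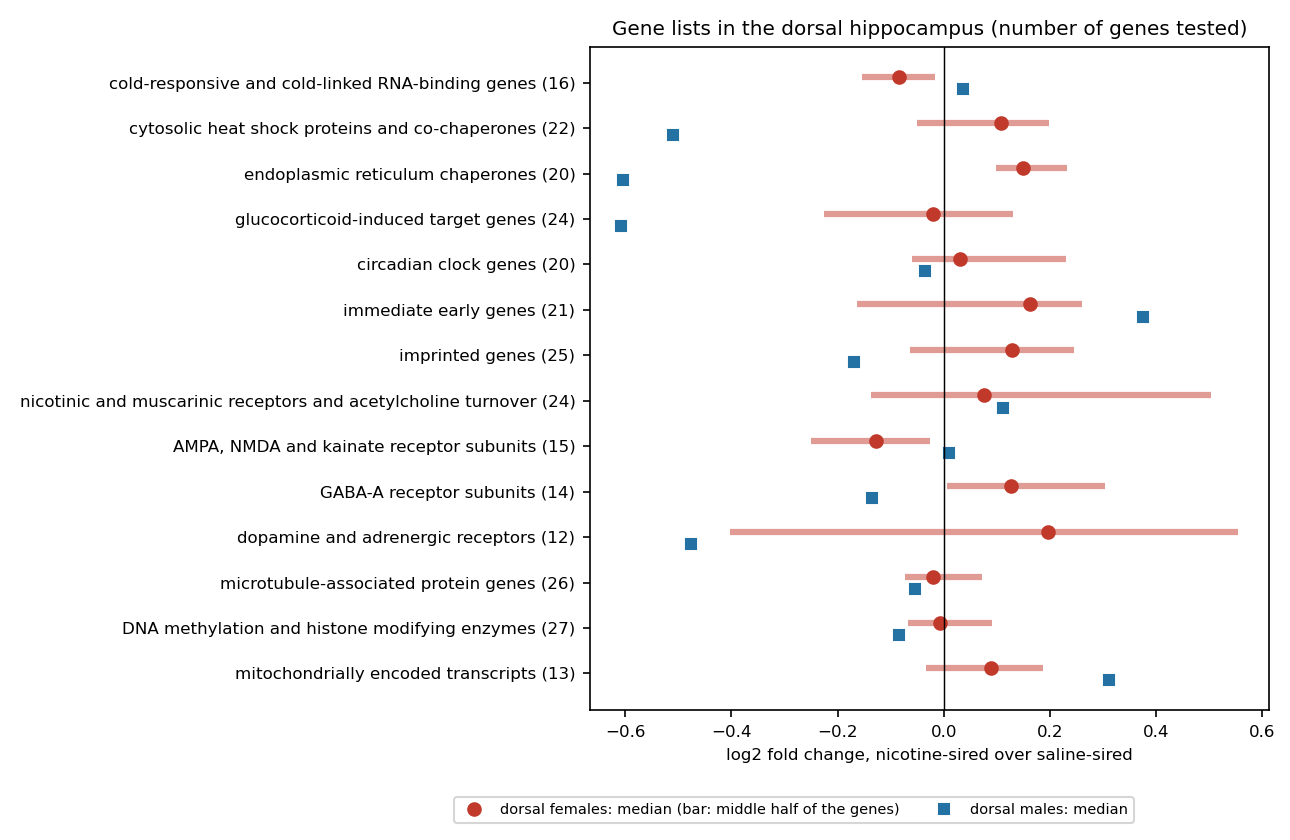
Median log2 fold change (nicotine-sired over saline-sired) of 14 gene lists in the dorsal hippocampus of daughters (red circles, the bar spanning the middle of the genes from the 25th to the 75th percentile) and sons (blue squares, median alone). Medians of daughters lie between -0.13 and 0.20; the chaperone lists are at 0.11 and 0.15 in daughters and at -0.51 and -0.60 in sons.

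Genes of neurotransmission gave no call in any of 4 lists. Of 24 genes of nicotinic and muscarinic receptors and acetylcholine turnover tested, 3 were higher and 3 lower at an unadjusted p under 0.05, against 7.2% and 6.12% of all genes. The median was 0.08, but -0.0042 with the plexus score, -0.0023 without nicotine-sired A, -0.0096 without saline-sired B and 0.17 without saline-sired C. Chrnb2, the beta2 subunit gene of the main brain nicotinic receptor, was at 42.2, 45.7 and 45.0 CPM in nicotine-sired and 49.3, 51.3 and 53.3 CPM in saline-sired daughters (-0.21 ± 0.07, edgeR adjusted p = 0.231). Ly6h, whose product holds back alpha7 receptors, was at 98.8, 110 and 101 CPM in nicotine-sired and 119, 136 and 167 CPM in saline-sired daughters (-0.45 ± 0.12, edgeR adjusted p = 0.196). Both were without overlap. Chrm2, a muscarinic receptor gene, was at 12.7, 5.62 and 6.62 CPM in nicotine-sired and 4.004, 3.50 and 5.99 CPM in saline-sired daughters (0.89 ± 0.35, edgeR adjusted p = 0.327), with its highest value in nicotine-sired A, without which it was 0.43 ± 0.29 (edgeR adjusted p = 0.530).

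Of 15 AMPA, NMDA and kainate receptor subunits tested, 11 had a negative log2FC (median -0.13), 2 at an unadjusted p under 0.05, against 6.12% of all genes. Grik5, a kainate receptor subunit gene, was at 193, 189 and 193 CPM in nicotine-sired and 226, 255 and 255 CPM in saline-sired daughters (-0.36 ± 0.09, edgeR adjusted p = 0.182), without overlap. The AMPA subunit gene Gria1 was at 482 CPM in nicotine-sired A and 748 to 994 CPM in the other 5 libraries (-0.28 ± 0.20). For the 14 GABA-A receptor subunits no gene had an unadjusted p under 0.05 (median 0.13, but 0.05 without nicotine-sired A and 0.08 without nicotine-sired B). Of 12 dopamine and adrenergic receptors, 1 was higher and 2 lower at that level, against 7.2% and 6.12% of all genes. Their median had no settled direction. It was 0.20, but -0.17 with the plexus score, -0.03 without nicotine-sired A, -0.18 without nicotine-sired B, 0.34 without saline-sired C, 0.01 with the 6 female libraries alone and 0.39 without the 3 libraries with high Ttr. Adra2c, an alpha2 adrenergic receptor gene, was at 20.3, 23.0 and 19.05 CPM in nicotine-sired and 26.2, 26.4 and 30.5 CPM in saline-sired daughters (-0.41 ± 0.12, edgeR adjusted p = 0.223).

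Immediate early genes, which follow neuronal activity, gave no call among 21 (median 0.16), with 3 higher at an unadjusted p under 0.05, against 7.2% of all genes. Without the 3 libraries with high Ttr, which leaves A as the only nicotine-sired library, the median was 0.68. Egr3 was at 67.1, 42.6 and 60.7 CPM in nicotine-sired and 35.2, 34.1 and 34.7 CPM in saline-sired daughters (0.71 ± 0.16, edgeR adjusted p = 0.180). Homer1 was at 256, 130 and 163 CPM in nicotine-sired and 120, 124 and 113 CPM in saline-sired daughters (0.62 ± 0.19, edgeR adjusted p = 0.244). Egr1 was at 421, 155 and 267 CPM in nicotine-sired and 175, 185 and 199.96 CPM in saline-sired daughters, with overlap. All 3 were highest in nicotine-sired A. Without that library Egr3 had 0.57 ± 0.15 (edgeR adjusted p = 0.176) and Homer1 0.29 ± 0.10 (edgeR adjusted p = 0.243). Of 25 imprinted genes tested, Peg10 ranked highest, 17 had a positive log2FC and the median was 0.13. Nnat, the neuronatin gene, was at 93.4, 154 and 131 CPM in nicotine-sired and 212, 209 and 321 CPM in saline-sired daughters (-0.97 ± 0.31, edgeR adjusted p = 0.257).

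Blood cell markers lay higher in nicotine-sired daughters without passing, while the sums of endothelial and of myelin markers overlapped. Haemoglobin and other blood cell markers summed to 635, 481 and 373 CPM in nicotine-sired A, B and C and 218, 263 and 321 CPM in saline-sired A, B and C. Of these 7 markers, 5 lay higher without overlap, against 9.11% of all genes, and the same number at an unadjusted p under 0.05, against 7.2%, among them Hba-a1 (0.96 ± 0.22, edgeR adjusted p = 0.182), which has a near-identical copy, and Alas2 (1.19 ± 0.28, edgeR adjusted p = 0.181). Of 14 endothelial markers, 12 had a positive log2FC (median 0.22), with sums of 557, 428 and 507 CPM in nicotine-sired A, B and C and 422, 451 and 475 CPM in saline-sired A, B and C. Kdr and Flt1, the VEGF receptor genes, were without overlap, Flt1 at 86.0, 60.6 and 67.9 CPM in nicotine-sired and 52.6, 50.4 and 60.5 CPM in saline-sired daughters (0.39 ± 0.12, edgeR adjusted p = 0.217). Without nicotine-sired A, Flt1 had 0.23 ± 0.09 (edgeR adjusted p = 0.304). Tfrc, the transferrin receptor gene, lay the other way (-0.32 ± 0.10, edgeR adjusted p = 0.230), and its difference between daughters and sons was -1.31 ± 0.14 (edgeR adjusted p = 0.000763). Of 14 pericyte, smooth muscle and meningeal markers, 9 had a positive and 5 a negative log2FC (median 0.06), and Myh11, a smooth muscle myosin gene, had -0.67 ± 0.19 (edgeR adjusted p = 0.210). All 14 myelin markers had a positive log2FC (median 0.25), Gjb1 alone without overlap, and their sums were 6056, 8687 and 9920 CPM in nicotine-sired A, B and C and 7578, 6954 and 5397 CPM in saline-sired A, B and C. All 18 ciliary markers had a positive one (median 1.49), 10 at an unadjusted p under 0.05, against 7.2% of all genes, with sums of 25.6, 123 and 76.0 CPM in nicotine-sired A, B and C and 32.9, 27.9 and 29.0 CPM in saline-sired A, B and C. The ciliary sum followed the libraries with plexus in the nicotine-sired daughters but not in saline-sired C. Without the 3 libraries with high Ttr the medians were -0.41 for cilia, -0.30 for myelin, 0.63 for endothelial cells and 1.34 for blood cells. With the plexus score the ciliary median was 0.50, and without nicotine-sired B it was 0.87.

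The neuronal markers gave no call. CA pyramidal markers summed to 1522, 1729 and 1666 CPM in nicotine-sired and 1928, 1998 and 1598 CPM in saline-sired daughters, with 9 of 15 negative. Their median was -0.16, but -0.45 with the plexus score, -0.35 without nicotine-sired B and -0.77 without the 3 libraries with high Ttr. Fibcd1, a marker of dorsal CA1, was at 65.8, 141 and 116 CPM in nicotine-sired and 186, 196 and 175 CPM in saline-sired daughters (-0.79 ± 0.23, edgeR adjusted p = 0.231), without overlap and lowest in nicotine-sired A, without which it had -0.54 ± 0.14 (edgeR adjusted p = 0.167). Npy, an interneuron neuropeptide gene, was at 94.9, 56.6 and 73.9 CPM in nicotine-sired and 44.2, 54.2 and 42.0 CPM in saline-sired daughters (0.68 ± 0.19, edgeR adjusted p = 0.207), and without nicotine-sired A it had 0.47 ± 0.16 (edgeR adjusted p = 0.250). Dentate granule markers overlapped, with sums of 418, 702 and 641 CPM in nicotine-sired and 677, 585 and 477 CPM in saline-sired daughters. Marker sums therefore varied within each group as well as between the groups.

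The ventral hippocampus of the same daughters, tested in a fit of its own, gave the same sign for 29 of the 30 ranked genes, against 65.9% of all genes. Both regions come from the same animals, so this is no independent replication. The plexus markers also lay higher in the nicotine-sired daughters in both regions, with a median log2FC of 2.92 in ventral and 2.52 in dorsal samples. The part of this in the shared signs was not tested. In the ventral fit 6 of 19224 genes passed, all of them lower. Rbm3 was at 33.7, 40.2 and 30.6 CPM in nicotine-sired and 46.1, 59.6 and 60.3 CPM in saline-sired ventral samples (-0.67 ± 0.12, edgeR adjusted p = 0.0672). Eml2 (-0.50 ± 0.08, edgeR adjusted p = 0.0313) and Cirbp (-0.59 ± 0.08, edgeR adjusted p = 0.0183) passed in the ventral samples. Gm42756 had 0.82 ± 0.38 there, with overlapping groups, and did not pass (edgeR adjusted p = 0.358). G530011O06Rik was at 2.09, 1.22 and 0.857 CPM in nicotine-sired and 8.39, 4.46 and 6.91 CPM in saline-sired ventral samples (-2.23 ± 0.30, edgeR adjusted p = 0.0183), and Gm15726 had -3.48 ± 0.49 (edgeR adjusted p = 0.0183). The levels of these transcripts were thus low in the nicotine-sired animals in both regions. Cdc42ep1 was at 19.9, 19.3 and 20.5 CPM in nicotine-sired and 15.2, 17.2 and 20.6 CPM in saline-sired ventral samples, with overlap (0.17 ± 0.11, edgeR adjusted p = 0.478). The test of the difference between the dorsal and the ventral log2FC called no gene (0% of 19849, lowest edgeR adjusted p = 0.992), with 696 genes at an unadjusted p under 0.05, and DESeq2 called 0 as well. That fit did not pair the 2 regions of an animal. With the animal as a replicate block, edgeR again called 0 genes, with 1364 at an unadjusted p under 0.05. For Cdc42ep1 the difference was 0.45 ± 0.14 and for Gjb1 0.82 ± 0.23, neither of which passed. A difference that does not pass does not show that the regions respond alike.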

How the data were processed

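RNA of frozen dorsal hippocampi was sequenced from a stranded mRNA kit as single-end reads, per the labels' protocols. The authors deposited raw read counts per Ensembl gene, 1 column per library. Per the submitters' processing notes, Cuffdiff 2.2.1.3, Cufflinks, TopHat2 2.1.0 and GRCm38 (mm10) were used, in roles not stated there. No source used here gives the counter, its strand setting or its handling of multi-mapped reads. Of 51912 genes, 51719 were found in GENCODE M21.

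The deposited counts of the 12 dorsal libraries were fitted with edgeR 4.0.16 (R 4.3.3) with a mean for each of the 4 groups, using TMM scaling, the filterByExpr filter, a robust quasi-likelihood F test (two-sided) and Benjamini-Hochberg adjustment over all genes tested, at 0.05. The sex difference is a contrast of that fit, and the region difference one of a fit of all 24 libraries. Each SE was derived from the test, as the size of the log2FC divided by the square root of the F statistic. CPM use TMM-scaled library sizes. Dorsal and ventral libraries with the same title prefix pair, since they come from the same animal; over 12 animals the correlation of their deviations had a median of 0.154 and ran from -0.0755 to 0.528. The procedure was tested on simulated counts. Alternatives were DESeq2 1.42.0, other scaling, no filter, a non-robust fit, blocks, covariates, other sets of libraries and leaving out each library. Genes named are the 6 called, the 15 smallest p with a name of their own in each direction, the 3 smallest p in each list, the first markers of a cell type list and the smallest p of the sex and region differences; Calr, Clk1, Clk4, Cx3cr1, Egr1, Eml1, Eml4, Fkbp4, Gm15247, Gria1, Hnrnpdl, Mid1, mt-Nd2, Sdf2l1 and Srsf3 were added after their values were seen. The comparison, its lists and its tests were chosen with earlier results of these data known. Some results are not reported here.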

Additional observations from a re-analysis of the deposited data

Results flagged for a closer look

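For 29 of the genes considered for naming, the nicotine-sired over saline-sired log2 fold change in dorsal daughters differed from that in dorsal sons, by edgeR's interaction test at an adjusted p under 0.05 (adjusted p-values 5.31e-05 to 0.0460). The values below are the female minus the male log2 fold change. Rbm3, Cirbp, Dbp, Eml2, Tfrc, Peg10, Stip1, Hyou1, Pdia6 and Hsp90b1 were taken for naming by the p of this same difference, and most of the others were ranked on the female libraries that enter it. Their differences are therefore given as a description, and the number past the threshold supports nothing.

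The difference was negative for 15 genes. It was -1.84 for Rbm3, -1.55 for Cirbp, -1.62 for Dbp, -1.31 for Tfrc, -1.54 for Inhbb and -5.59 for Gm15726. It was -0.996 for Eml2, -0.94 for Frat2, -0.68 for Cep131, -0.64 for Zfp316, -0.56 for Cpe, -0.56 for Chst2, -0.54 for Capn5, -0.48 for Rsrp1 and -0.41 for Lhfpl4.

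The difference was positive for 14 genes. The chaperone genes were at 1.09 for Hsp90b1, 1.05 for Pdia6, 0.94 for Hyou1 and 0.93 for Stip1. It was 2.19 for Peg10, 2.07 for Gm42756, 2.92 for Cfap57, 1.65 for Shroom3, 1.41 for Inhba and 1.37 for Cast. It was 1.03 for Myo1e, 1.01 for Kcnk13, 0.77 for Ankrd45 and 0.69 for Mapk4.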

How the results depend on the processing

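The 6 calls in dorsal daughters became 14 without the low-count filter, 2 when a plexus score and 3 when the antisense share entered the model, 0 with the 6 female libraries alone, 89 with all 24 libraries and 284 with DESeq2. They became 1290 without the 3 libraries with Ttr over 1000 CPM, which leaves 1 nicotine-sired library, assumed to vary like the other groups, against 2. Leaving out 1 library gave 0 to 12 calls, 12 being without saline-sired male C. DESeq2-style size factors gave 6 and the non-robust fit 4. The 428 sex differences became 252 when the plexus score entered the model, 1289 with DESeq2, 1402 without the 3 libraries with high Ttr, and 76 to 837 without 1 library. The region difference had 0 calls under every setting run, including the animal as a replicate block.

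Letters A to C showed no sign of pairing animals between groups. In dorsal daughters the deviations of libraries with the same letter correlated at -0.134, -0.00675 and -0.107, and 0 of 3 correlated best with their own letter. The same measure matched the dorsal to the ventral library of the same animal best in only 9 of 12 animals. It can therefore miss a true pairing and does not exclude one by letter. With the letter as a replicate block, 2 of the 6 female calls and 217 sex differences were made, and the median of the immediate early genes was 0.07. Log2 fold changes reversed only without the 3 high-Ttr libraries, for Dnah12 (-1.87), Ermn (-0.0759) and Map7 (-0.0197). The cause was not tested. Depth limits the values of transcripts such as Gm15726, at 0.0767 to 0.202 CPM in nicotine-sired daughters.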

Other observations

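Glia other than oligodendrocytes and the genes that write chromatin marks were close in the 2 groups of dorsal daughters. Of 12 astrocyte markers, 6 had a positive and 6 a negative log2 fold change (nicotine-sired over saline-sired, median -0.01), none with an unadjusted p under 0.05. Of 12 microglial markers, 8 were positive (median 0.06, and -0.03 without nicotine-sired C). Cx3cr1, the fractalkine receptor gene of microglia, was at 45.7, 45.5 and 48.3 CPM in nicotine-sired and 43.5, 41.9 and 43.7 CPM in saline-sired daughters (0.11 ± 0.06, edgeR adjusted p = 0.469). Among 27 DNA methylation and histone modifying enzyme genes, the median was -0.01. Hdac11, a histone deacetylase gene, was at 162, 157 and 150.5 CPM in nicotine-sired and 175, 171 and 190.5 CPM in saline-sired daughters (-0.19 ± 0.07, edgeR adjusted p = 0.265). Kmt2d, a histone methyltransferase gene, was at 77.0, 78.5 and 82.2 CPM in nicotine-sired and 72.6, 69.6 and 73.5 CPM in saline-sired daughters (0.14 ± 0.06, edgeR adjusted p = 0.372).

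Transcripts of the mitochondrial genome had a median of 0.09 over 13 genes, and 0.27 without the 3 libraries with Ttr over 1000 CPM. mt-Nd2, a subunit of complex I, was at 5310, 4264 and 4043 CPM in nicotine-sired and 4138, 3868 and 3552 CPM in saline-sired daughters (0.24 ± 0.11, edgeR adjusted p = 0.387), with overlap and the highest value in nicotine-sired A.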
